A study of Mus musculus with 36 samples.

Results

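Mitosis and kinetochore genes are 46 of the 24781 genes in a deposited table of molecule counts for 36 libraries of immune cells sorted from mouse tumours. They were chosen by gene symbol, as a list of genes whose products build the spindle and the kinetochore or drive and time cell division, and all 46 symbols were found in the table. The mice carried MC38, a colon adenocarcinoma line inoculated intradermally, and each library holds 100 cells sorted at day 7. Tumour-associated macrophages (TAMs) were sorted as CD45+CD11b+F4/80high cells and CD8+ T cells as CD45+TCRbeta+CD8+ cells, and a mouse gave 1 library of a cell type. Either cell type has 6 wild-type (WT) libraries, 6 muMt-/- libraries and 6 libraries of muMt-/- mice implanted with a GABA pellet.

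WT mice were C57BL/6J or C57BL/6N animals, and muMt-/- mice, on the C57BL/6J background, carry a disrupted immunoglobulin heavy chain gene in every cell and lack mature B cells. By the labels WT and muMt-/- mice had no treatment, while the methods of the study describe placebo pellets for mice not given GABA. There is no WT group with a GABA pellet, so an effect of GABA apart from the genotype cannot be read from these libraries. The study used mice of both sexes aged 2 to 5 months, and the labels do not give the age or sex of single mice. They also do not say which substrain a WT library comes from, so a difference between muMt-/- and WT mice cannot be told apart from one of substrain.

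A cell enters mitosis when CDK1 is active with cyclin B, and the kinetochore, a protein assembly on the centromere, then ties each chromosome to spindle microtubules. Unattached kinetochores keep the spindle assembly checkpoint on, which blocks CDC20 and the anaphase-promoting complex until all chromosomes are attached, after which securin and cyclin B are destroyed and the cell divides. Many of these transcripts build up in G2 and M phase through promoter elements bound by DREAM, B-MYB and FOXM1 complexes and by NF-Y, so that their level in a sample follows the share of dividing cells, in activated T cells and in macrophages that divide in tissues alike.

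The labelled cell types were checked against marker lists, with the summed molecules of each list as a share of a library. All 16 macrophage markers were in the table, and they took 1.67% to 2.13% of the molecules in TAM libraries of WT mice (median 1.97%), 1.44% to 1.84% in those of muMt-/- mice (median 1.60%) and 1.04% to 1.93% with GABA (median 1.77%), with 0 of the 16 at 0. All 12 T cell markers were in the table, and they took 0.379% to 0.699% of the molecules in CD8+ T cells of WT mice (median 0.523%), 0.213% to 0.620% in muMt-/- mice (median 0.447%) and 0.235% to 0.701% with GABA (median 0.454%), again with 0 markers at 0. Ctss was the most abundant macrophage marker in TAMs and Thy1 the most abundant T cell marker in CD8+ T cells. Both sorted populations thus carried markers of their own type, but some CD8+ T cell libraries held more of the macrophage list. T cell markers reached at most 0.00426% in a TAM library.

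Macrophage markers were also found in CD8+ T cell libraries, in ranges that overlapped between the groups and were not tested. Their share was 0.0186% to 0.216% in WT mice (median 0.0392%, with Adgre1 and Mrc1 at 0), 0.100% to 0.707% in muMt-/- mice (median 0.155%) and 0.0304% to 0.358% with GABA (median 0.206%), with Ctss the most abundant of them in each group. In CD8+ T cell replicate 1 of muMt-/- mice they exceeded the T cell markers, at 0.707% against 0.213%. The same held with GABA in replicate 1 (0.355% against 0.235%) and replicate 3 (0.358% against 0.339%). Stroma markers, led by Col3a1, reached 0.531% in 1 TAM library of a WT mouse and 0.132% in a CD8+ T cell library of a muMt-/- mouse. The 9 epithelial markers reached at most 0.00396%, with Cldn4, Cldn7, Krt18, Krt19 and Krt20 at 0 in every group. Neutrophil markers reached at most 0.0283% and natural killer cell markers 0.00926%. Dendritic cell markers reached 0.0554% in CD8+ T cells, where Ccr7, which T cells also express, was the most abundant, and erythroid markers 0.0742% in 1 library of CD8+ T cells from a WT mouse.

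The 46 genes together took between 0.136% and 0.362% of a library's molecules. In TAMs the share was 0.219% to 0.358% in WT mice (median 0.299%), 0.148% to 0.299% in muMt-/- mice (median 0.168%) and 0.149% to 0.327% with GABA (median 0.225%). Replicate 5 was the high library of the muMt-/- TAMs at 0.299% (95% Wilson interval 0.279% to 0.321%), and replicate 1 was the low WT library at 0.219% (0.200% to 0.239%), so the groups overlapped through these libraries. In CD8+ T cells the share was 0.136% to 0.330% in WT mice (median 0.197%), 0.148% to 0.362% in muMt-/- mice (median 0.258%) and 0.154% to 0.303% with GABA (median 0.217%), and all 3 groups overlapped. A lower share may mean fewer dividing cells or less RNA of these genes per cell, which cannot be told apart in pooled cells. Top2a, Smc4 and Mki67 gave the most molecules in TAMs, at 12.3%, 9.66% and 6.50% of all member molecules, and the same 3 genes came first in CD8+ T cells, at 10.6%, 13.5% and 5.68%, without regard to transcript length.

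**Figure D1:**
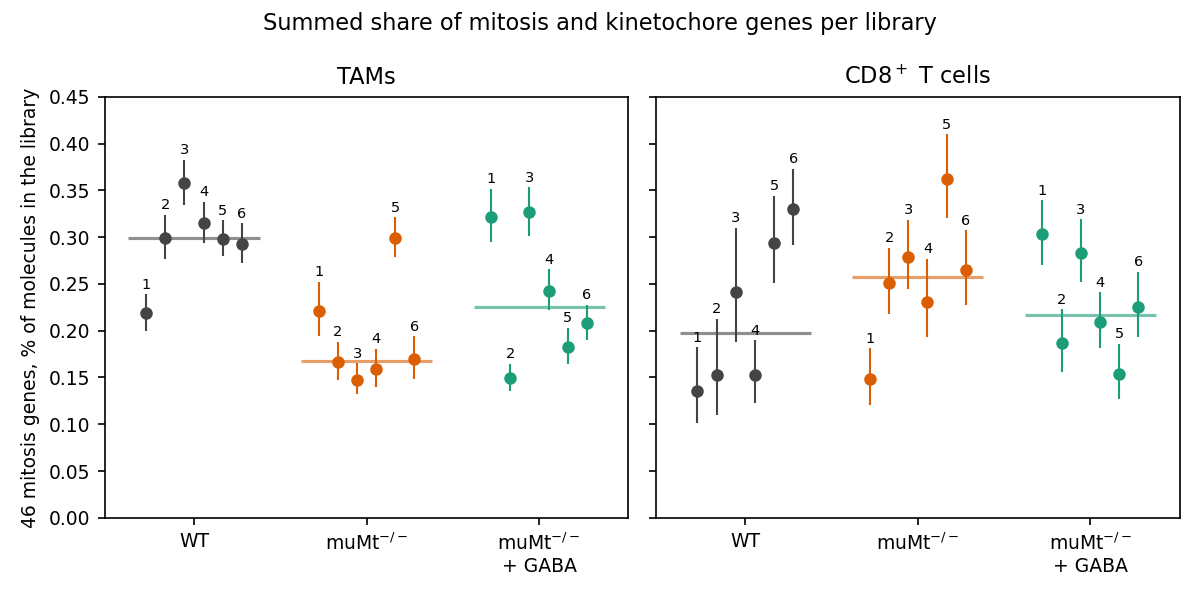
Each point is a library, its number the replicate, and the y axis gives the molecules of the 46 mitosis and kinetochore genes as a percent of all molecules in the library, with 95% Wilson intervals as bars and group medians as lines. In TAMs, 5 of the 6 libraries of muMt-/- mice lie between 0.148% and 0.221%, and replicate 5 lies at 0.299%.

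Depth and the number of members seen differed between the libraries. TAM libraries held 100254 to 304100 molecules and 40 to 46 of the members, and CD8+ T cell libraries held 22896 to 98015 molecules and 17 to 44 of the members, the lowest number in WT replicates 1 and 2. Values of single genes are given as normalized molecules, which are counts divided by a size factor computed over the 18 libraries of a cell type, and genes with a mean above 1 were tested. In TAMs 45 of the 46 members passed and Cdc25c, a phosphatase that activates CDK1, did not, with 12 molecules over 18 libraries. In CD8+ T cells 35 passed, and Anln, Aurka, Aurkb, Cdc25c, Kif20a, Kif22, Kif2c, Ndc80, Nuf2, Spc25 and Ttk did not.

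The comparison of muMt-/- with WT mice asks how TAMs differ where mature B cells are missing. There the mitotic genes were lower almost throughout: 44 of the 45 tested members had a negative log2 fold change, with a median of -0.67, against -0.05 over all 9469 genes tested. The checkpoint gene Mad2l1, the cyclin gene Ccna2, the chromosomal passenger gene Cdca8 and the kinesin gene Kif20a fell at an adjusted p under 0.05 (edgeR quasi-likelihood test, Benjamini-Hochberg adjustment over all genes), and no member rose. These 4 of 45 stand beside 1.02% of all genes tested that were called lower. With library depth (log2 molecules) in the model 0 of the 45 passed, and 11 of all genes in place of 194. At an unadjusted p under 0.05, 20 members were lower and 0 higher, beside 8.15% and 6.72% of all genes. In 3 members, Mad2l1, Kif20a and Cdca8, every library of the muMt-/- mice lay below every WT library, which held for 1.33% of all genes.

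**Figure D2:**
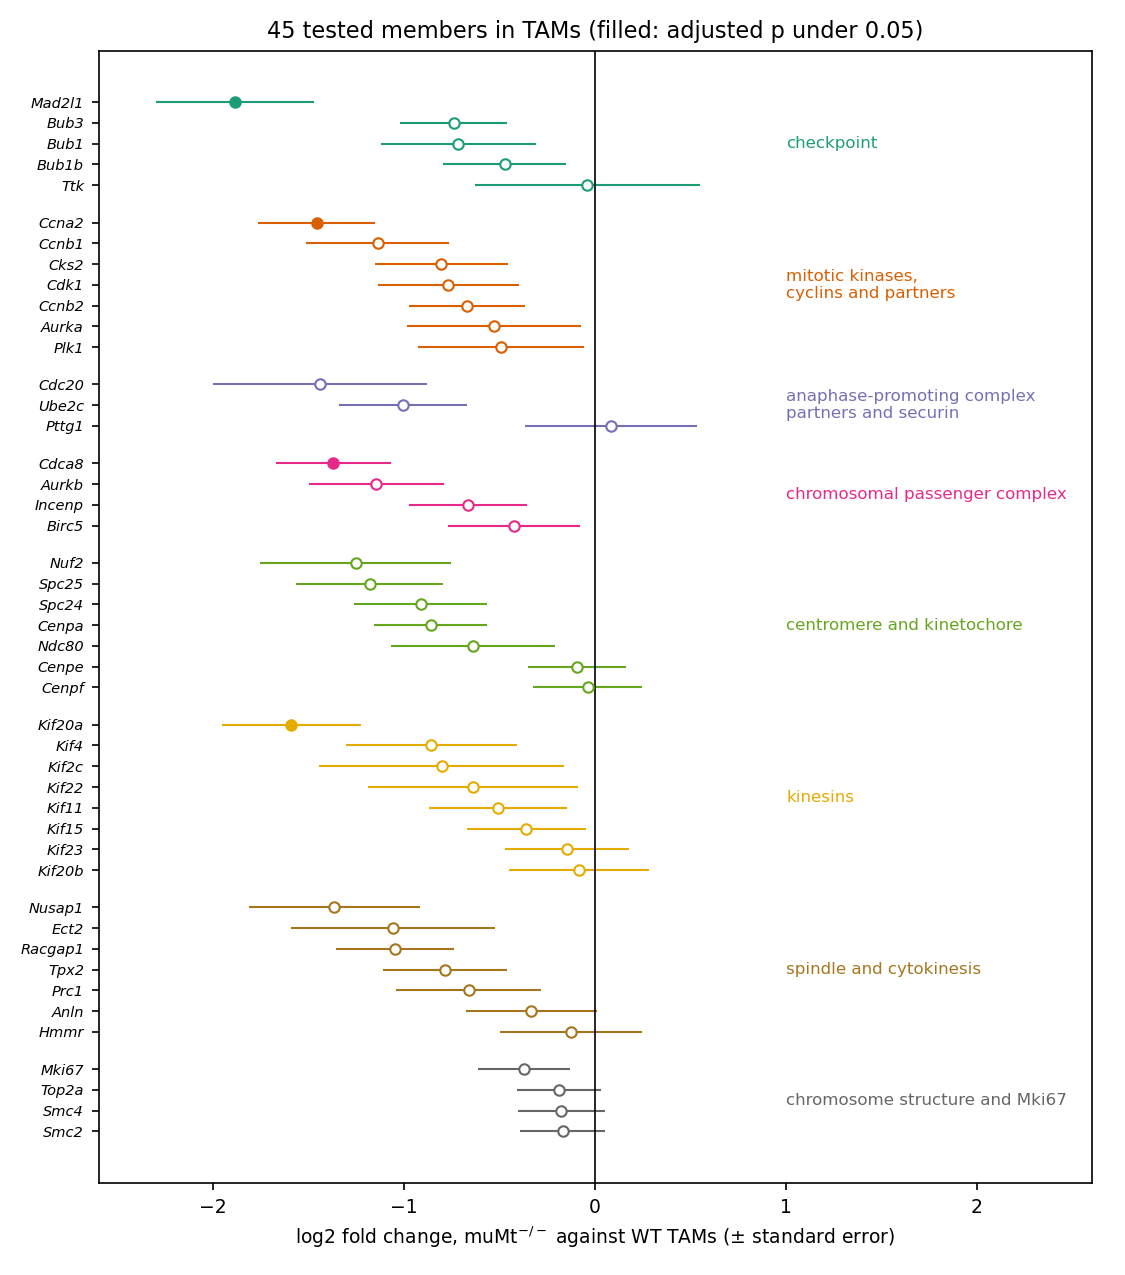
Points give the log2 fold change of each tested member in TAMs of muMt-/- against WT mice on the x axis, with standard errors as bars, grouped by role, and filled points have an adjusted p under 0.05. Of the 45 points, 44 lie left of 0, from Mad2l1 at -1.89 to Cenpf and Ttk at -0.04, and the 4 genes of chromosome structure and proliferation lie between -0.37 and -0.17.

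Mad2l1 encodes MAD2, the checkpoint protein that binds CDC20 while kinetochores are unattached. It had 5.81 to 10.2 normalized molecules in TAMs of WT mice (median 9.40), 0 to 3.69 in those of muMt-/- mice (median 2.19) and 1.44 to 9.14 with GABA (median 4.09). All 6 libraries of muMt-/- mice lay below all 6 WT libraries, replicate 6 had no molecule, and the GABA libraries spread over both ranges. Mad2l1 fell by 1.89 on the log2 scale in muMt-/- against WT mice (SE 0.41, adjusted p = 0.00828). The other checkpoint members, the kinases Bub1, Bub1b and Ttk and the BUB1 partner Bub3, had log2 fold changes from -0.74 to -0.04, and the 5 checkpoint members had a median of -0.72. Bub3, the lowest of these 4, had an adjusted p of 0.175.

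Among the cyclins and mitotic kinases, Ccna2, cyclin A2, which pairs with CDK2 in S phase and with CDK1 at the entry to mitosis, had 10.2 to 26.0 normalized molecules in TAMs of WT mice (median 18.5), 2.79 to 11.3 in those of muMt-/- mice (median 6.24) and 4.58 to 15.8 with GABA (median 7.96). The groups met only where muMt-/- replicate 1 lay above WT replicate 6, and 5 of 6 libraries of muMt-/- mice lay below all WT libraries. Ccna2 fell by 1.46 on the log2 scale (SE 0.31, adjusted p = 0.00632). Ccnb1, cyclin B1, had 4.26 to 15.7 normalized molecules in WT mice (median 9.10) and 0.922 to 8.62 in muMt-/- mice (median 4.58), with a log2 fold change of -1.14 (SE 0.37, adjusted p = 0.0997). The 7 tested genes of this role had a median of -0.77, and 5 of them were lower at an unadjusted p under 0.05. Plk1, the kinase of many steps from mitotic entry to cytokinesis, had the value nearest 0, at -0.49.

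The chromosomal passenger complex, in which INCENP, survivin (Birc5) and borealin (Cdca8) carry the kinase Aurora B (Aurkb) to centromeres and later to the midzone, had a median log2 fold change of -0.91 over its 4 members. Cdca8 had 9.38 to 16.6 normalized molecules in TAMs of WT mice (median 11.99), 2.79 to 7.47 in those of muMt-/- mice (median 4.22) and 4.06 to 9.29 with GABA (median 8.60). The WT libraries lay above all libraries of both muMt-/- groups. Cdca8 fell by 1.37 on the log2 scale in muMt-/- against WT mice (SE 0.30, adjusted p = 0.00828). Aurkb had 4.26 to 11.6 normalized molecules in WT mice (median 7.79) and 1.88 to 4.66 in muMt-/- mice (median 3.71), which overlap in a narrow range, and its log2 fold change was -1.14 (SE 0.35, adjusted p = 0.0796).

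Kif20a, a kinesin that moves passenger proteins to the central spindle, had 5.97 to 12.6 normalized molecules in TAMs of WT mice (median 8.71), 0 to 4.66 in those of muMt-/- mice (median 3.25) and 2.88 to 5.49 with GABA (median 3.52). Every WT library lay above every library of both muMt-/- groups, and muMt-/- replicate 1 had no molecule. Kif20a fell by 1.59 on the log2 scale in muMt-/- against WT mice (SE 0.37, adjusted p = 0.0127). The 8 kinesins had a median of -0.57, and Kif20a was the only one of them with an unadjusted p under 0.05. Kif23 and Kif20b, both motors of cytokinesis, lay near 0 at -0.15 and -0.08.

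**Figure D3:**
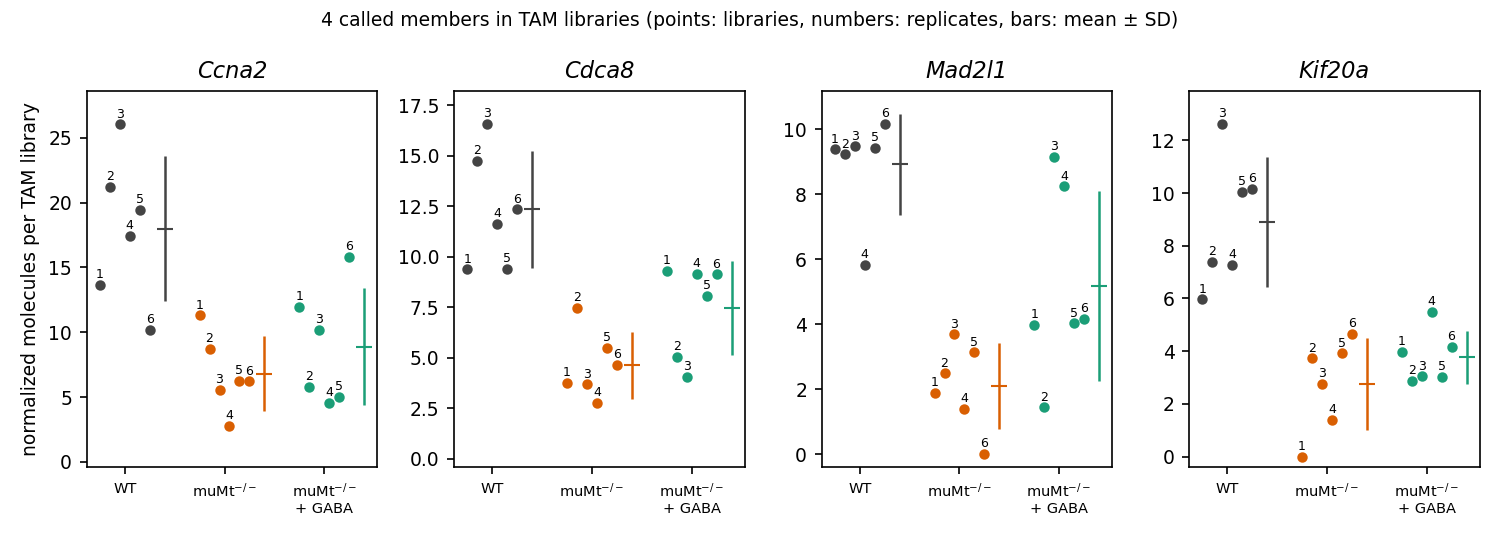
Points give normalized molecules per TAM library on the y axis for Ccna2, Cdca8, Mad2l1 and Kif20a in the 3 groups of mice, with replicate numbers, and bars give the mean and SD of 6 libraries. For Kif20a the WT libraries lie at 5.97 or more, and all libraries of muMt-/- mice, with or without GABA, lie at 5.49 or less.

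No member of the remaining roles passed the adjusted threshold. The 7 centromere and kinetochore genes had a median log2 fold change of -0.86, and 4 of them were lower at an unadjusted p under 0.05. Spc25, a subunit of the NDC80 complex that grips microtubules, had 4.26 to 12.3 normalized molecules in TAMs of WT mice (median 7.60) and 1.84 to 5.48 in muMt-/- mice (median 2.64), with a log2 fold change of -1.18 (SE 0.39, adjusted p = 0.0959). Ube2c, the ubiquitin-conjugating enzyme of the anaphase-promoting complex, had 14.2 to 25.4 in WT mice (median 17.3) and 1.39 to 21.1 in muMt-/- mice (median 6.71), with a log2 fold change of -1.01 (SE 0.34, adjusted p = 0.106). Its high value in muMt-/- mice came from replicate 5, and the other 5 libraries of that group lay below all WT libraries. Of the other partners of this complex, the activator Cdc20 had a log2 fold change of -1.44 and securin, Pttg1, the only member above 0, had 0.08.

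Among the 7 genes of the spindle and of cytokinesis the median was -0.79, and 3 were lower at an unadjusted p under 0.05. Racgap1, part of the centralspindlin complex that places the cleavage furrow, had 5.54 to 19.7 normalized molecules in TAMs of WT mice (median 13.9) and 2.79 to 9.42 in muMt-/- mice (median 6.37), with a log2 fold change of -1.05 (SE 0.31, adjusted p = 0.0640). Nusap1, which bundles spindle microtubules, had 5.08 to 12.4 in WT mice (median 9.84) and 0 to 7.05 in muMt-/- mice (median 4.69), with a log2 fold change of -1.36 (SE 0.45, adjusted p = 0.0964). Both overlapped between the groups, and Nusap1 had no molecule in muMt-/- replicates 3 and 4. The 4 genes of chromosome structure and proliferation, the condensin subunits Smc2 and Smc4, topoisomerase IIα (Top2a) and Mki67, had the median nearest 0 of any role, -0.18, and 0 genes past an unadjusted p of 0.05.

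TAM libraries of muMt-/- mice also held fewer molecules than those of WT mice, a median of 149960 against 242756, and a lower share of macrophage markers, 1.60% against 1.97%. The medians of neutrophil markers were 0.0123% against 0.00452%, and those of dendritic cell markers 0.00183% against 0.000638%. With library depth (log2 molecules) added to the model, 0 of 45 members had an adjusted p under 0.05, among all genes 11 in place of 194, and 12 members were lower at an unadjusted p under 0.05, while the log2 fold changes of Mad2l1, Ccna2, Cdca8 and Kif20a were -1.84, -1.62, -1.49 and -1.31. Without muMt-/- replicate 5, the deepest of its group, 9 members were called (230 of all genes), with Ccnb1, Cenpa, Nusap1, Racgap1 and Ube2c added, without WT replicate 2 there were 5 (157 of all genes), with Racgap1 added, and without muMt-/- replicate 4 there were 3 (69 of all genes), with Kif20a at an adjusted p of 0.0536 (range over all alternatives 0.00748 to 0.292). Since depth differed between the groups, the fit with depth cannot fully part it from genotype. The part of the marker shares in these differences was not tested.

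The comparison of GABA-treated with untreated muMt-/- mice asks what GABA does to TAMs when B cells are absent. No member passed the adjusted threshold by edgeR, where 0.0211% of all genes did, and DESeq2 called 0 of the 3 members for which it gave an adjusted p. At an unadjusted p under 0.05, 4 members were higher and 0 lower, beside 5.15% and 3.31% of all genes, and the median log2 fold change was 0.30 against 0.06 over all genes. The 4 were Cdk1, Bub3, Ccnb1 and Mad2l1. With 1 library left out the median ran from 0.20 to 0.52 (0.52 without muMt-/- replicate 5 and 0.45 without GABA replicate 2), and these members numbered 2 to 9: 9 without muMt-/- replicate 5, 7 without GABA replicate 2, and 2 without muMt-/- replicate 3, muMt-/- replicate 6 or GABA replicate 3.

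Cdk1, the kinase that drives mitotic entry, had 1.24 to 24.5 normalized molecules in TAMs of muMt-/- mice (median 4.63) and 9.97 to 30.5 with GABA (median 18.1), with a log2 fold change of 0.95 (SE 0.37, adjusted p = 0.435). In muMt-/- mice replicates 1 and 5 held 24.5 and 18.8 normalized molecules of Cdk1, within the range with GABA, and the other 4 libraries at most 5.58. Its partner Ccnb1 had 6.04 to 15.2 with GABA (median 7.72) and a log2 fold change of 0.94 (SE 0.40, adjusted p = 0.494). Bub3 had 3.73 to 11.3 in muMt-/- mice (median 8.81) and 7.48 to 17.1 with GABA (median 12.6), with a log2 fold change of 0.73 (SE 0.29, adjusted p = 0.439). For Mad2l1 the log2 fold change was 1.08 (SE 0.47, adjusted p = 0.517), and all 4 genes overlapped between the groups. The other genes that fell in muMt-/- mice had log2 fold changes of 0.64 (Cdca8), 0.43 (Ccna2) and 0.36 (Kif20a) with GABA. With 1 library left out Ccna2 ran from 0.14 to 0.56 and Kif20a from 0.19 to 0.51. Cdk1 ran from 0.73 to 1.48 and Ccnb1 from 0.69 to 1.42. This comparison shares its muMt-/- libraries with the comparison of muMt-/- and WT mice, so that opposite signs in the pair of comparisons are not independent.

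Against WT mice, TAMs of GABA-treated muMt-/- mice had 0 members past the adjusted threshold by edgeR, where 0.0739% of all genes passed, and DESeq2 called 0 of the 5 members for which it gave an adjusted p. At an unadjusted p under 0.05, 9 members were lower and 0 higher, beside 3.28% and 3.74% of all genes, with a median of -0.35 against 0.02 over all genes. With 1 library left out the 9 became 4 to 13, the 4 without GABA replicate 2, and the median ran from -0.57 (without GABA replicate 3) to -0.23 (without GABA replicate 2). In 3 members, Kif20a, Spc24 and Cdca8, all GABA libraries lay below all WT libraries, which held for 0.359% of all genes. The log2 fold change was -1.23 for Kif20a (SE 0.33, adjusted p = 0.234), -1.03 for Ccna2 (SE 0.27, adjusted p = 0.234) and -0.73 for Cdca8 (SE 0.26, adjusted p = 0.497). Spc24, which pairs with SPC25 in the NDC80 complex, had 5.54 to 10.2 normalized molecules in WT mice (median 6.74), 1.84 to 5.58 in muMt-/- mice (median 3.84) and 1.01 to 4.06 with GABA (median 3.46), and its log2 fold change against WT mice was -1.16 (SE 0.34, adjusted p = 0.299).

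The other 5 of these genes were Mad2l1, Tpx2, Top2a, Racgap1 and Spc25, with log2 fold changes from -0.81 (Mad2l1) to -0.50 (Top2a). Tpx2, which activates Aurora A on the spindle, had 9.23 to 16.9 normalized molecules in TAMs of WT mice (median 9.84) and 3.98 to 13.2 with GABA (median 5.83). Top2a, which untangles sister chromatids, had 52.0 to 85.2 in WT mice (median 63.0) and 30.3 to 81.0 with GABA (median 34.3). Both overlapped between the groups. For Cdk1 and Bub3 the values with GABA were at the WT level, with log2 fold changes of 0.18 and -0.01, while for Kif20a and Spc24 they were close to those of muMt-/- mice without GABA; whether the members differ in this was not tested.

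**Figure D4:**
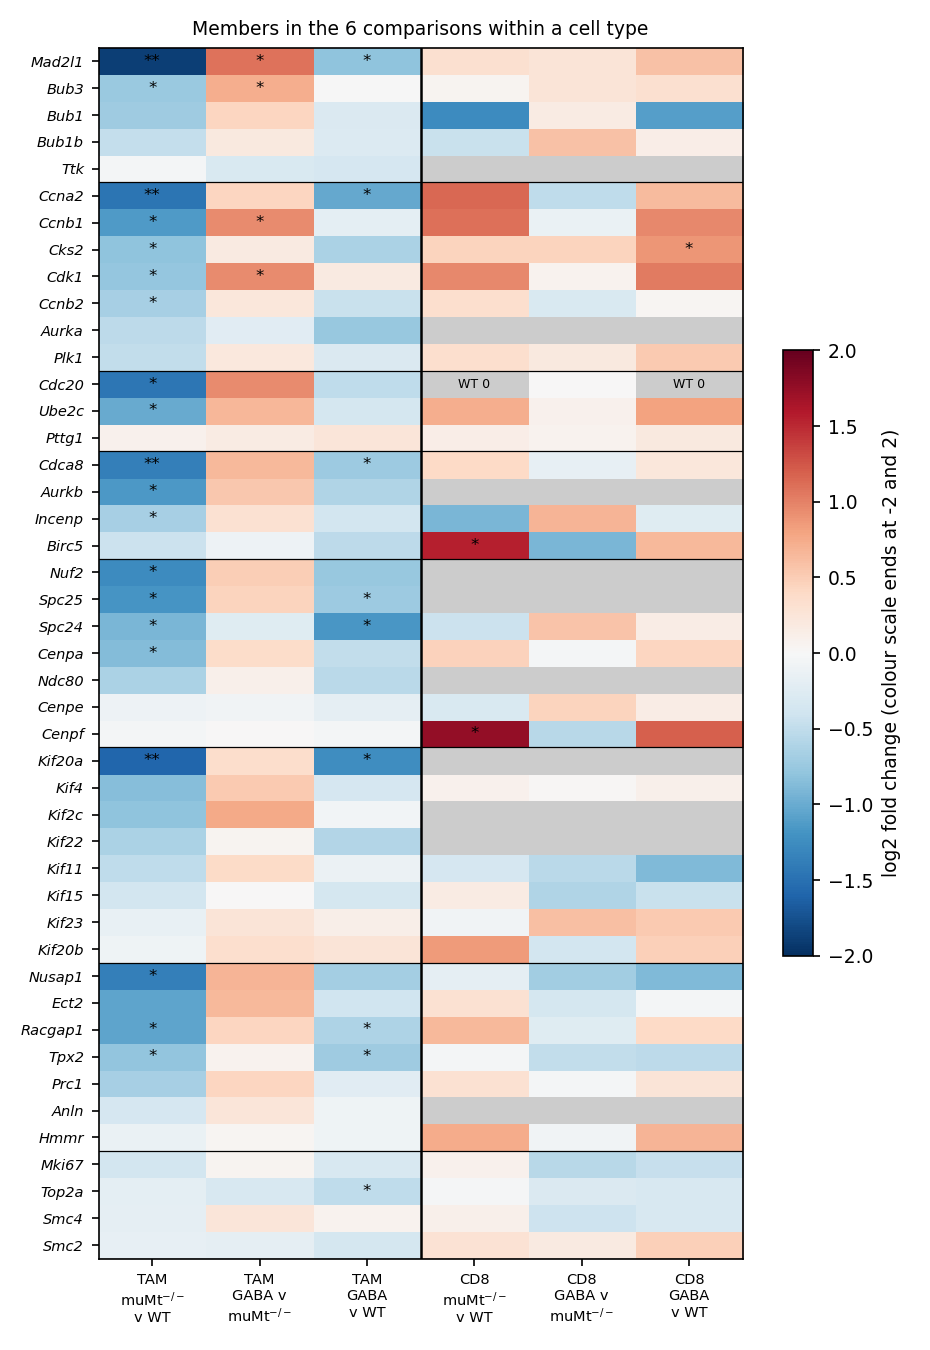
Colours give the log2 fold change of the 45 members tested in TAMs, ordered by role, in 3 comparisons within TAMs and 3 within CD8+ T cells, with grey for members under the filter and for Cdc20 where WT libraries held 0 molecules. One star marks an unadjusted p under 0.05 and a pair of stars an adjusted p under 0.05, which only Mad2l1, Ccna2, Cdca8 and Kif20a have, each in TAMs of muMt-/- against WT mice.

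In CD8+ T cells no member passed the adjusted threshold between any groups, and neither did any other gene (0% of 6663). In muMt-/- against WT mice, 3 members had an unadjusted p under 0.05 and a higher value and 0 a lower one, beside 5.37% and 0.795% of all genes, and DESeq2 called 0 of 35 at an adjusted p under 0.05. The median log2 fold change of the members was 0.30, against 0.15 over all genes. With the size factors of DESeq2 in place of TMM these medians were 0.21 and 0.06, and the number of members below 0 was 14 in place of 10, so these values depend in part on the scaling. WT libraries were the shallower ones (median 42065.5 against 67121.5 molecules), and with depth in the model the median of the members was -0.10 (all genes 0.06), with 20 of 35 below 0 and 1 lower and 1 higher at an unadjusted p under 0.05. Depth differed between the groups, so this fit cannot fully part depth from genotype. With 1 library left out the median ran from 0.07 (without WT replicate 4) to 0.46 (without WT replicate 6), with 0.14 to 0.18 without WT replicate 1, 2 or 3 or muMt-/- replicate 5, and without WT replicate 5 the 3 higher members became 5.

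The 3 members were Cdc20, Cenpf and Birc5. Cdc20 had no molecule in any WT library of CD8+ T cells, and 0.743 to 4.09 normalized molecules in muMt-/- mice (median 1.84), from 14 molecules spread over all 6 libraries. Against a floor of 3 molecules over the WT group this is 3.13-fold higher in muMt-/- mice, and at least 2.19-fold by the lower 95% counting limit of the ratio. Cdc20 was the only member whose groups did not overlap, which held for 0.3% of all genes in this direction. With a mean of 0 in WT mice, Cdc20 passed the filter through both muMt-/- groups (means 2.05 and 1.90 with GABA), so its lack of overlap is a description only. Cenpf, a large kinetochore protein of G2 and M phase, had 0 to 3.76 in WT mice (median 0.516) and 0.833 to 8.996 in muMt-/- mice (median 5.95), with a log2 fold change of 1.75 (SE 0.58, adjusted p = 0.433). Birc5 had 0 to 4.57 in WT mice (median 0.917) and 1.64 to 9.16 in muMt-/- mice (median 2.80), with a log2 fold change of 1.56 (SE 0.66, adjusted p = 0.698). Both overlapped, and 3 of the 6 WT libraries had no molecule of Cenpf (replicates 1, 2 and 3) and 3 none of Birc5 (replicates 2, 3 and 6). All 3 genes were also found in TAMs, and the macrophage markers in the T cell libraries were at a median of 0.155% in muMt-/- mice and 0.0392% in WT mice; their part in these values was not tested.

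Between GABA-treated and untreated muMt-/- mice the members in CD8+ T cells lay around 0. None passed the adjusted threshold by edgeR or DESeq2 (0% of all genes by edgeR), and at an unadjusted p under 0.05 there were 0 higher and 0 lower, beside 2.01% and 1.7% of all genes, with a median of -0.04 against 0.03. With depth in the model the median was -0.43, with 2 members lower at an unadjusted p under 0.05, and without GABA replicate 1 there were also 2. With 1 library left out the median ran from -0.28 to 0.10, above 0 without muMt-/- replicate 5 or GABA replicate 4, 5 or 6. The lowest was Birc5, the survivin gene, at -0.91, and the highest Incenp, its partner, at 0.68.

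In GABA-treated muMt-/- against WT mice 0 members passed by edgeR or DESeq2 (0% of all genes by edgeR), and 2 had an unadjusted p under 0.05 and a higher value and 0 a lower one, beside 5.99% and 0.9% of all genes. The median was 0.26, against 0.21 over all genes, and the size factors of DESeq2 gave 0.13 and 0.06, a shift of 0.15 for all genes. With depth in the model the median of the members was -0.28 (all genes 0.04), with 26 of 35 below 0 and 5 lower and 1 higher at an unadjusted p under 0.05, the opposite direction. Here too depth differed between the groups (median 80283 with GABA and 42065.5 in WT mice) and cannot be fully parted from them. Without WT replicate 6 the 2 higher members became 5 and the median 0.60, and with 1 other library left out 1 or 2 members were higher. The median was 0.14 without WT replicate 2 or 4 and 0.16 without GABA replicate 1, where 2 members were lower at an unadjusted p under 0.05. Cdc20 was 2.90-fold higher than the floor of the WT group, from 17 molecules, and at least 2.24-fold by the lower 95% counting limit. Cks2, a small protein that binds CDK1, had 0 to 6.01 normalized molecules in WT mice (median 3.21), 3.03 to 7.85 in muMt-/- mice (median 4.13) and 3.10 to 8.67 with GABA (median 6.26), and its log2 fold change against WT mice was 0.88 (SE 0.43, adjusted p = 0.721). With Cdc20 at its value against the floor, the medians of both comparisons with WT mice were the same, 0.30 and 0.26.

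The 4 genes that fell in TAMs were sparse in CD8+ T cells. Ccna2 had 0 to 3.43 normalized molecules in WT mice (median 1.62), 1.01 to 6.86 in muMt-/- mice (median 3.30) and 0 to 3.12 with GABA (median 2.92). Mad2l1 had 0 to 5.72 in WT mice (median 1.64), 0 to 4.91 in muMt-/- mice (median 2.32) and 1.86 to 4.73 with GABA (median 2.92). For Cdca8 the values were 0 to 6.01 in WT mice (median 0.516), 1.01 to 3.36 in muMt-/- mice (median 2.77) and 0 to 5.58 with GABA (median 1.70). All of these groups overlapped. Kif20a, under the filter, had 3, 8 and 9 molecules in the 3 groups, the 3 WT molecules all in replicate 6.

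Whether muMt-/- changes the members differently in TAMs and in CD8+ T cells was tested as an interaction over all 36 libraries. It was negative, lower in TAMs, for 42 of 45 members, with a median of -0.81 against -0.30 over all genes, but 0 members passed the adjusted threshold (0.0118% of all genes did), and DESeq2 called 0 of the 2 for which it gave an adjusted p. At an unadjusted p under 0.05, 14 members were lower and 0 higher, beside 8.32% and 1.75% of all genes. Ccna2, named here after its value was seen, had an interaction of -2.63 on the log2 scale (SE 0.67, adjusted p = 0.137). With the size factors of DESeq2 the median was -0.62 for the members and -0.11 for all genes, and 36 members were negative. With depth in the model the medians were -0.36 and -0.17, with 34 members negative and 4 lower in place of 14. Anln, Aurka, Aurkb, Kif20a, Kif22, Kif2c, Ndc80, Nuf2, Spc25 and Ttk were under the filter within CD8+ T cells. Their response in those cells rests on few molecules. For the response to GABA the median was 0.44 against 0.01 over all genes, with 32 of 45 members above 0 (0.24 without CD8+ T cell replicate 5 and 0.75 without TAM replicate 5 of the muMt-/- mice), but 0 members passed by edgeR or DESeq2 (0% of all genes by edgeR), and 1 had an unadjusted p under 0.05 and a higher value and 0 a lower one, beside 2.58% and 1.95% of all genes. That member was Aurkb, at 1.68 (SE 0.83, adjusted p = 0.994 by edgeR), also named after its value was seen. With 1 library left out this count ran from 0 to 2, and it was 0 with the replicate block or without a filter.

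Between the cell types of WT mice, members were lower in CD8+ T cells than in TAMs, with a median log2 fold change of -0.75 against -0.36 over all 8477 genes tested, or -0.60 against -0.20 with the size factors of DESeq2. The genes Ccna2, Cdc20, Kif20a, Anln and Cenpf were called lower in CD8+ T cells and 0 members higher, beside 16.8% and 5.99% of all genes, so the 5 of 45 are a share no larger than that of all genes. CD8+ T cells of WT mice had 8 molecules of Ccna2 and TAMs 141, or on average 2.49 and 10.5 normalized molecules (size factors over 36 libraries), and the log2 fold change was -1.96 (SE 0.48, adjusted p = 0.00151). Anln, anillin of the contractile ring, had 4 and 71 molecules and a log2 fold change of -1.92 (SE 0.70, adjusted p = 0.0390 by edgeR). Anln lost this call in 10 of 17 alternatives, among them 7 of 12 fits with 1 library left out. Cenpf, named because it was called, had 8 and 99 molecules and a log2 fold change of -1.45 (SE 0.54, adjusted p = 0.0420 by edgeR). Cenpf was not called with the size factors or the test of DESeq2, nor in most fits with 1 library left out. Kif20a had 3 and 71 molecules (adjusted p = 0.00703 by edgeR), and its mean of normalized molecules was 8.27-fold higher in TAMs. For the ratio of pooled molecules, which is another measure, the 95% counting interval was 1.56 to 23.6. The 3 molecules of Kif20a in CD8+ T cells were all in replicate 6, so this interval does not measure the spread between mice. With 1 library left out the fitted log2 fold change of Kif20a ran from -5.77 to -1.95. Cdc20 had 0 and 47 molecules (adjusted p = 0.00602 by edgeR). It was 3.05-fold lower in CD8+ T cells against the floor, and at least 2.46-fold by the lower 95% counting limit. With Cdc20 at its value against the floor the median stays -0.75.

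The lowest log2 fold change among members not called was that of Ccnb1, -1.50 (SE 0.64, adjusted p = 0.0872). The 5 highest values were those of Pttg1 at 0.30, Smc4 at 0.24, the centromeric histone gene Cenpa at 0.10, the spindle kinesin gene Kif15 at -0.12 and Bub3 at -0.19, each with an SE larger than the value. Without CD8+ T cell replicate 6 of the WT mice, 12 members were called, while 5 single libraries (TAM replicates 4 and 5 and CD8+ T cell replicates 1, 3 and 4 of WT mice) each left 3 when left out, and 0 were called with library depth (log2 molecules) in the model, and the depth was 22896 to 76898 in these T cell libraries and 206394 to 304100 in the TAM libraries. With depth in the model the median of the members was 0.10 (all genes -0.09), with 19 of 45 below 0, and at an unadjusted p under 0.05 there were 0 lower and 2 higher, so the lower values in CD8+ T cells were not seen there. A depth that differs this much between the cell types cannot be told apart from the cell type.

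In muMt-/- mice the median log2 fold change of CD8+ T cells against TAMs was 0.15 (all genes -0.10), which became 0.65 with depth in the model. Leaving out 1 library gave from -0.14 (without CD8+ T cell replicate 5) to 0.37 (without CD8+ T cell replicate 1), and was 0.01 without CD8+ T cell replicate 2, 0.05, 0.09 and 0.30 without TAM replicates 1, 2 and 5. There 1 member was called lower and 2 higher in CD8+ T cells, beside 13.6% and 7.71% of all genes, which were Cenpe, the kinesin of the kinetochore, at -1.24 (SE 0.42, adjusted p = 0.0269), Cenpa at 1.44 (SE 0.37, adjusted p = 0.00220) and Mad2l1 at 1.58 (SE 0.55, adjusted p = 0.0326). Without CD8+ T cell replicate 2 of the muMt-/- mice, or with depth in the model, only Cenpa was called. Mad2l1 was also not called without TAM replicate 6 or CD8+ T cell replicate 3 or 5, without a filter or with filterByExpr. Cenpe was also not called without TAM replicate 2 or 5 or CD8+ T cell replicate 6. With GABA the median was -0.16 (all genes -0.12), or 0.23 with depth in the model. Leaving out 1 library gave from -0.29 to -0.01 (-0.29, -0.27, -0.09, -0.01 and -0.10 without CD8+ T cell replicates 1, 3, 4, 5 and 6, and -0.24 without TAM replicate 2 or 5). With GABA 0 members were lower and 2 higher, beside 14.1% and 7.93% of all genes, which were Cenpa at 1.05 (SE 0.33, adjusted p = 0.0146) and Cks2 at 1.34 (SE 0.36, adjusted p = 0.00328). Calls rose to 4 without TAM replicate 5 or without CD8+ T cell replicate 6 of the GABA-treated mice. Without TAM replicate 2 of these mice Cenpa was not called, and Cks2 and Kif11 were. Cenpe, Cenpa, Mad2l1 and Cks2 are named here because they were called.

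Other cell cycle genes in TAMs of muMt-/- against WT mice were taken from lists of 5 kinds. Of 94 other mitosis genes tested, 0 passed the adjusted threshold by edgeR and 0 of 16 with an adjusted p by DESeq2, 25 were lower and 1 higher at an unadjusted p under 0.05 (8.15% and 6.72% of all genes), and the median was -0.54, with Pkmyt1, a kinase that inhibits CDK1, at -2.21 (SE 0.63, adjusted p = 0.0541), Cenpw at -1.76, Ckap2 at -1.76 and the cohesin gene Rad21 at -0.68. Of 49 DNA replication genes, 3 fell and 0 rose by edgeR, where 1.02% of all genes fell, and DESeq2 called 1 of the 15 with an adjusted p; the median was -0.46. Asf1b, a histone chaperone of S phase, had 8.72 to 18.2 normalized molecules in WT mice (median 10.2) and 0.783 to 6.22 in muMt-/- mice (median 2.48), without overlap, and fell by 2.08 on the log2 scale (SE 0.38, adjusted p = 0.00211). Tk1, thymidine kinase, had 9.23 to 12.4 in WT mice (median 10.6) and 1.24 to 6.45 in muMt-/- mice (median 4.68), again without overlap, and fell by 1.36 (SE 0.33, adjusted p = 0.0182). Rrm2, a ribonucleotide reductase subunit, fell by 0.95 (SE 0.27, adjusted p = 0.0483), and Rpa1 had a log2 fold change of -1.19 (SE 0.34, adjusted p = 0.0507).

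The genes that act before S phase or hold cells out of the cycle had medians nearer 0. Of 16 G1 and S phase cyclins, kinases and E2F genes, 0 passed by edgeR and 0 of 6 by DESeq2, and 2 were lower and 0 higher at an unadjusted p under 0.05, near the 8.15% of all genes that were lower, with a median of -0.22 (Ccnd3 -0.75, Cdk4 -0.64, E2f1 -0.55 and E2f8 -0.52). Of 15 inhibitors, Btg1, an antiproliferative gene, rose by 0.54 on the log2 scale (SE 0.14, adjusted p = 0.0317), from 184 to 259.9 normalized molecules in WT mice (median 201) to 272 to 345 in muMt-/- mice (median 311), without overlap, where 1.02% of all genes were called higher. At an unadjusted p under 0.05, 1 inhibitor was lower and 2 were higher. The median of the inhibitors was 0.00, with Rbl1 at -0.74, Btg2 at 0.41 and Mdm2 at 0.46. Of 11 regulators of the promoters of G2 and M phase genes, 0 passed by edgeR and 0 of 2 by DESeq2, and 1 was lower at an unadjusted p under 0.05, again near 8.15%, Tfdp1 at -0.91, and the NF-Y subunit Nfyc, Foxm1 and Mybl2 were at -0.60, -0.78 and -0.84, with a median of -0.27 over the list.

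The members lie on 16 chromosomes in the mm10 build, at most 7 on one, so they are not a cluster of neighbours. Mad2l1 is at chr6:66535221-66541107, Ccna2 at chr3:36564865-36573038 and Cdca8 at chr4:124918465-124936917. In the RefSeq annotation 19 members overlap another gene, among them Ccna2 with Exosc9 and Kif20a with Brd8 and Cdc23, and 4 have a named pseudogene. Exosc9, an exosome subunit gene, had a log2 fold change of -0.13 (SE 0.39, adjusted p = 0.929) in TAMs of muMt-/- against WT mice, Brd8 0.67 (SE 0.35, adjusted p = 0.373) and Cdc23 -0.45 (SE 0.58, adjusted p = 0.797), and genes that overlap the other members were not looked at.

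Promoter motifs of cell cycle genes were counted in the members. The RefSeq table (GRCm38.p6) holds 41 promoters, each of 250 bases before to 50 after a transcription start, for 38 members, and no entry for Aurkb, Ccna2, Cdc25c, Incenp, Kif20a, Smc4, Spc24 and Tpx2. The letters TTTGAA, a form of the cell cycle homology region (CHR) bound by DREAM and by B-MYB and FOXM1 complexes, were found on either strand in 32 of the 41 (78.0%), against 17.9% of all 32851 promoters in the table. The NF-Y motif CCAAT was found on either strand in 31 (75.6%), against 37.4%, and both motifs in 27 (65.9%), against 6.95%. The E2F-like letters TTTGGCGC or TTTCGCGC were in 2 (4.88%), against 0.813%. Members with a CHR-like match had a median log2 fold change of -0.64 in TAMs of muMt-/- against WT mice (29 genes) and those without -0.80 (9 genes), while for CCAAT the medians were -0.67 with (28 genes) and -0.53 without (10 genes). The promoters of Mad2l1, Birc5, Nuf2, Nusap1 and Pttg1 held none of the motifs. A match is a description, not a site or a cause.

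Of the genes that fell in TAMs, Cdca8 is the one whose promoter entry holds both motifs, and it is printed to show where they lie. Racgap1, Spc25 and Ube2c, the next members in order of p with both, were added after their values were seen. Each sequence runs 5′ to 3′ on the strand of the gene, from RefSeq GRCm38.p6, and capitals mark TTTGAA or TTCAAA and CCAAT or ATTGG. The windows are chr4:124936868-124937167 (minus strand) for Cdca8, chr15:99651607-99651906 (minus strand) for Racgap1, chr2:69206164-69206463 (minus strand) for Spc25 and chr2:164769679-164769978 (plus strand) for Ube2c.
Cdca8: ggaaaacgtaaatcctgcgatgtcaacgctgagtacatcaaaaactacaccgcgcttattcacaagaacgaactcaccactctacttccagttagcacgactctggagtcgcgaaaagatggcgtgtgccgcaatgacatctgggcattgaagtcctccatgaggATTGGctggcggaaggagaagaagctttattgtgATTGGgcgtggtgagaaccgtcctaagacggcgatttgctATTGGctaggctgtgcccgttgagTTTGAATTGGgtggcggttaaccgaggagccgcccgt
Racgap1: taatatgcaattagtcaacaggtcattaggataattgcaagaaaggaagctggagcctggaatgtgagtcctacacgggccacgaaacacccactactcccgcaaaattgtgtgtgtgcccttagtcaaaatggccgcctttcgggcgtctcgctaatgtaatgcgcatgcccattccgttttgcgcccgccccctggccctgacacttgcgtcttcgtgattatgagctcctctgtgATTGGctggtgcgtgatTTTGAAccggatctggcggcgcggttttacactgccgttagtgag
Spc25: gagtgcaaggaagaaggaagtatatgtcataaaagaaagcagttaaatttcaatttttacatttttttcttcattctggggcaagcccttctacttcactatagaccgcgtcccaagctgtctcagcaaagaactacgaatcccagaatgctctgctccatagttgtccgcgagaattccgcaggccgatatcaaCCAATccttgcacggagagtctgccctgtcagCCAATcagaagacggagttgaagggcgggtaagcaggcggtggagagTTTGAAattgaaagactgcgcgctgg
Ube2c: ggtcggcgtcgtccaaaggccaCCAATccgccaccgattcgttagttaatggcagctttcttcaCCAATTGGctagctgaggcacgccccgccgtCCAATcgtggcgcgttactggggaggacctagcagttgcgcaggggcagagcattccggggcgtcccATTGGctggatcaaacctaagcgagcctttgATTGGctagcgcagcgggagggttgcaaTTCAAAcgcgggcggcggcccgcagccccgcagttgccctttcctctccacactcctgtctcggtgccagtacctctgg

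In Cdca8 the CHR-like match begins at base 264 of the 300 and shares its last base with a CCAAT match in reverse at base 269, and 3 further reverse CCAAT matches begin at bases 166, 200 and 240. Racgap1 has 1 of each, at bases 256 and 239. Spc25 has CCAAT at bases 196 and 228 and the CHR-like match at base 275. Ube2c has 6 CCAAT matches, of which those at bases 65 and 68 overlap on opposite strands, and a reverse CHR-like match at base 222. In all 4 promoters the CHR-like match lies within 50 bases of the annotated start.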

How the data were processed

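Each library holds 100 cells sorted from MC38 tumours at day 7. The authors primed RNA with oligo-dT, mapped reads to mm10 and deposited counts of molecules per gene, collapsed by molecular barcodes, in 1 table of 24781 genes and 36 libraries of 22896 to 304100 molecules. Genes with a mean above 1 normalized molecule (DESeq2 size factors) were tested with edgeR 4.0.16 (TMM, quasi-likelihood F-test) in R 4.3.3, over 18 libraries within a cell type and 36 between cell types, with Benjamini-Hochberg adjustment over all genes tested and a threshold of 0.05. The biological coefficient of variation came to 0.195 for TAM libraries and 0.294 for T cell libraries. Intervals of shares are 95% Wilson intervals. Alternatives were the size factors and Wald test of DESeq2 1.42.0, filterByExpr, no filter, a replicate block, depth as a covariate, fits of 12 libraries and leaving out each library. Members and lists (other mitosis, DNA replication, G1 and S, inhibitors, regulators, markers of 9 cell types, 1 of them not reported) were chosen with earlier results of these data known. Named members were at most 10 per comparison within a cell type with the lowest unadjusted p under 0.05, at most 4 per other list, and, between cell types in WT mice, those with the 5 highest and 5 lowest fold changes; members named outside these rules were chosen after their values were seen. Fold changes against 0 molecules are given against a floor of 3 molecules over the group, with the lower 95% counting limit of the ratio as the bound. Counting limits pool the molecules of a group and do not measure the spread between mice. Motifs were searched with Python 3.11.15 from 250 bases before to 50 after RefSeq starts. The methods were tested on simulated data.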

Additional observations from a re-analysis of the deposited data

Results flagged for a closer look

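In 6 of 48 groups of 6 libraries 1 library lay far from the others, its gap to the nearest being more than 0.625 of the whole range of the group. Chance alone gives this in about 1 in 20 groups of normally distributed values, a rate that need not hold for counts near 0. All Kif20a molecules of CD8+ T cells from WT mice were in replicate 6, so there the gap is the whole range. In normalized molecules these were the lowest TAM library of WT mice for Mad2l1 (5.81, replicate 4), the highest CD8+ T cell library of WT mice for Cdca8 (6.01, replicate 6) and for Kif20a (2.25, replicate 6), and the lowest CD8+ T cell library of GABA-treated muMt-/- mice for Ccna2 (0). Macrophage markers were far higher than in the other libraries in 1 CD8+ T cell library of WT mice (0.216%) and 1 of muMt-/- mice (0.707%, replicate 1). The cause was not tested. WT replicate 6 is the deepest CD8+ T cell library of its group, with 76898 molecules.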

How the results depend on the processing

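The 4 members lower in TAMs of muMt-/- against WT mice numbered 4 with the size factors of DESeq2, filterByExpr (26 members tested, Racgap1 called and Kif20a not tested), the replicate block and the fit of 12 libraries. They numbered 1 by the DESeq2 Wald test (Ccna2; the other 3 had no adjusted p), 8 without a filter, 0 with depth as a covariate and 3 to 9 with 1 library left out. The adjusted p over these alternatives ran from 8.16e-05 to 0.0823 for Ccna2, 0.00397 to 0.110 for Cdca8, 0.00145 to 0.145 for Mad2l1 and 0.00748 to 0.292 for Kif20a, and all log2 fold changes were negative (-2.13 to -1.27). The 20 members lower at an unadjusted p under 0.05, alternatives chosen after seeing the data, numbered 10 with filterByExpr, 12 with the covariate and 15 to 24 with 1 library left out.

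In TAMs of GABA-treated muMt-/- against WT mice, 0 members became 1 without a filter (Ccna2), and the interaction of cell type and muMt-/- 2 (Ccna2 and Cdc20). GABA against muMt-/- in TAMs, the 3 comparisons within CD8+ T cells and the interaction with GABA gave 0 under each alternative. For CD8+ T cells against TAMs in WT mice, 5 members became 3 with the size factors and 3 with the test of DESeq2, 0 with filterByExpr (9 members tested), 10 without a filter, 0 with the covariate and 3 to 12 with 1 library left out. In muMt-/- mice 3 became 4 with filterByExpr (9 members tested), 2 without a filter, 1 with the covariate and 1 to 4 with 1 library left out. With GABA 2 became 3 with the size factors or the test of DESeq2 or the replicate block, 4 without a filter and 2 to 4 with 1 library left out.

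Not all named members were followed under alternatives. Among those left out were all between cell types in muMt-/- mice and with GABA, and Cenpf between cell types in WT mice. Of the 725 fold changes followed, 684 kept sign and side of the threshold, 17 lost it, 12 gained it and 12 changed sign, the last all between cell types in WT mice. With the covariate Kif20a was 0.15, Ccnb1 0.78, Bub3 0.15 and Kif15 0.90, and Kif15 was 0.0336 with the size factors and 0.0246 with the test of DESeq2. With 1 library left out Kif15 ran from -0.64 to 0.0737, Bub3 from -0.58 to 0.13 (without CD8 WT replicate 4), Pttg1 from -0.0724 to 0.52 and Cenpa from -0.36 to 0.40 (both without CD8 WT replicate 6). The cause was not tested.

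Without the 50 most abundant genes the mean member share was 0.394%, 0.272% and 0.324% in TAMs (WT, muMt-/-, GABA; 0.297%, 0.194% and 0.239% with all genes) and 0.304%, 0.345% and 0.307% in CD8+ T cells (0.218%, 0.256% and 0.227%). Without the 3 most abundant members it was 0.218%, 0.129% and 0.172% in TAMs and 0.136%, 0.177% and 0.169% in CD8+ T cells, in the same order. Replicate numbers do not pair libraries: the mean correlation of same numbers ran from -0.0400 to 0.0744, and at most 2 of 6 libraries matched their own number best. In the T cells, whose libraries were shallower than those of TAMs, 11 members were under the filter, and the part of depth in this was not tested.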
